A study of Mus musculus with 8 samples.

Results

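This report compares 5 of the 8 liver libraries of a study of diet reversal in mice: the 3 labelled as Western diet with tumour (WD tumour 1, 2 and 3) and the 2 labelled as reversed diet with tumour (RD tumour 1 and 2). They were chosen by these sample labels alone, and together they hold 52772 of the 79446 barcodes with at least 300 detected genes. All animals were male DIAMOND mice, given in the labels as 129A1/SvIm and C57BL/6J cross mice, a cross that develops fatty liver disease and later hepatocellular carcinoma on a Western diet. The WD tumour mice ate a high-fat diet with fructose and glucose in the drinking water for 48 weeks, and the RD tumour mice ate it for 36 weeks and standard chow after that. The 3 livers of the same reversal in which no tumour was found (RD no tumour 1, 2 and 3) entered the fit only to estimate the spread between mice. One library was made per mouse from nuclei of snap-frozen liver with the 10x Genomics Chromium 3' kit, v3.1, so the groups hold n = 3 and n = 2 mice. The protocol and the series text disagree on age: by the first the animals were 48 weeks old at the end, by the second they were 2 months old when 48 weeks of Western diet began. Whether tumour tissue was in the piece used is not given, and every mouse in this comparison had received the Western diet for at least 36 weeks. The comparison asks how livers that carried tumours differed when the Western diet was kept and when it was withdrawn.

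The liver answers a diet of fat and sugar through a few well-known programmes. Insulin and sugar act through the transcription factors SREBP-1c and ChREBP to switch on the synthesis of fatty acids, and a shortage of sterol in the cell acts through SREBP-2 to switch on the synthesis and uptake of cholesterol. Hepatocytes near the central vein and near the portal tract carry different enzymes, and a circadian clock of activators (Clock, Arntl) and repressors (Per and Cry genes) drives daily waves of metabolic genes in the same cells. Long injury adds scar matrix from stellate cells and fibroblasts, immune cells and, in this strain, tumours.

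The 2 RD tumour libraries did not resemble each other, and they are therefore also given apart. RD tumour 1 held exactly 20000 barcodes, the largest number of the 8 libraries, and its log2 expression across genes correlated with the other libraries at 0.811 to 0.892, against 0.931 to 0.991 among the others. WD tumour 2 and RD no tumour 1 stood part of the way towards it for several of the genes below. RD tumour 2 carried RNA of pancreatic acinar cells. Total counts over the 5 libraries ran from 17948627 to 34363108 unique molecular identifiers (UMIs, 1 per captured RNA molecule), and the WD tumour libraries held fewer than both RD tumour libraries (exact two-sided permutation test over samples, p = 0.1, the smallest that 3 against 2 allows). Mitochondrial transcripts made up 4.21%, 1.68% and 4.24% of the UMIs of WD tumour 1, 2 and 3 and 1.63% and 1.36% of those of RD tumour 1 and 2, so WD tumour 1 and 3 stood above the rest. Any pair of libraries shared 8 to 62 barcodes, at most 0.676% of the smaller one. The 14 hepatocyte markers summed to 36012, 35827 and 34934 CPM in WD tumour 1, 2 and 3 and to 25987 and 28880.0 CPM in RD tumour 1 and 2, so liver RNA was plain in all of them. The summed level of the marker lists in every library is plotted next.

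**Figure D1:**
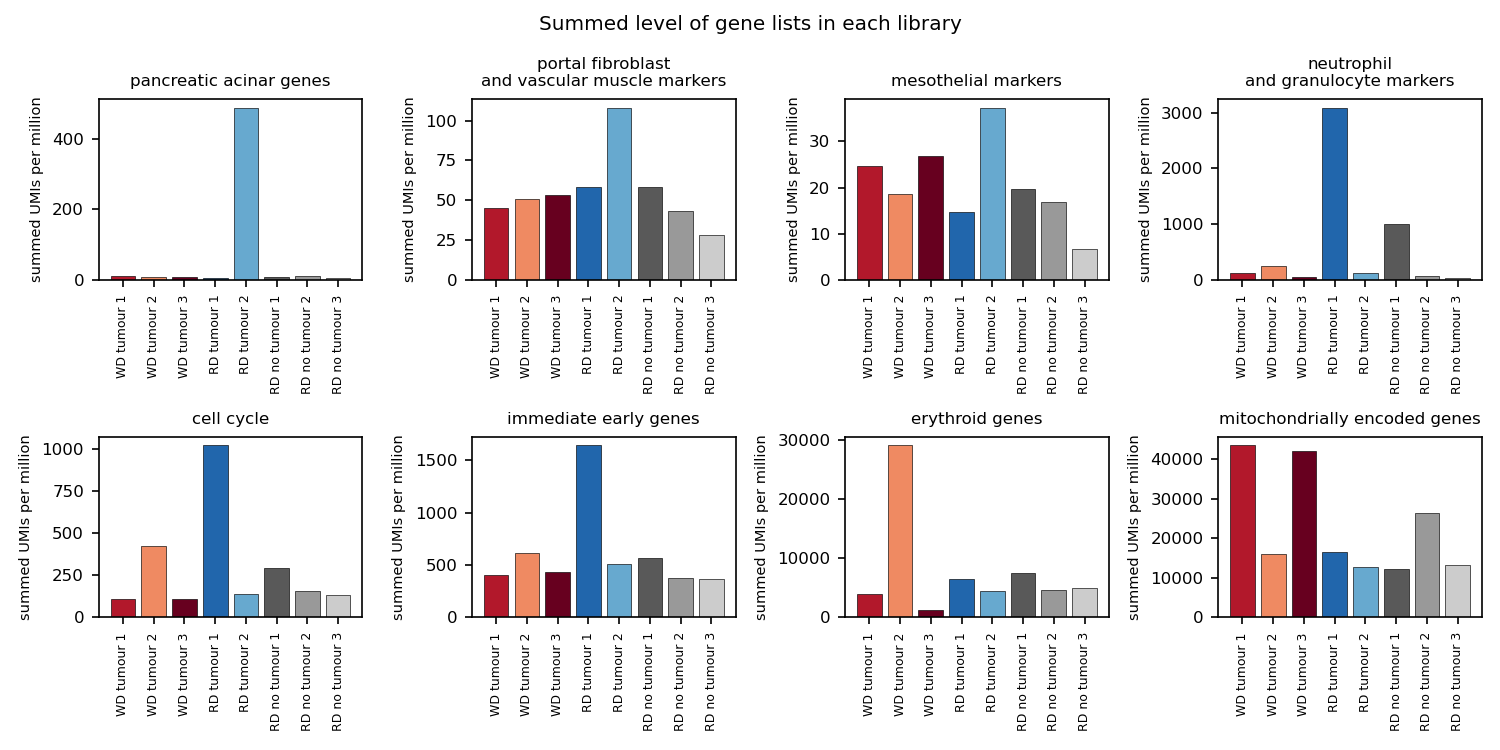
Bars give the summed CPM (UMIs per 1000000) of 8 gene lists in each of the 8 libraries, each panel on its own linear axis from 0. Pancreatic acinar genes stood at 489 in RD tumour 2 and at 3.67 to 10.3 in the other 7 libraries, neutrophil markers at 3094 in RD tumour 1, and erythroid genes at 29042 in WD tumour 2.

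UMIs were summed per library over these barcodes, so the values are those of whole pieces of liver, in which fewer cells of a type and less RNA per cell cannot be told apart. Levels are given as UMIs per 1000000 of the library (CPM), scaled between libraries by the TMM method, and differences as log2 WD tumour minus RD tumour, with the standard error (SE) of the fit. Of 32285 genes, 19087 passed the filter on low counts. No gene passed the threshold (an adjusted p under 0.05 in edgeR's quasi-likelihood test with Benjamini-Hochberg adjustment) between WD tumour and RD tumour, which is 0% of the genes tested. At an unadjusted p under 0.05 there were 1443 genes, 540 higher and 903 lower in WD tumour (2.83% and 4.73% of those tested), and the lowest adjusted p was 0.590. DESeq2, run on the same sums, called 109 genes, and without RD tumour 2 the edgeR test called 4438, which is then RD tumour 1 alone against the 3 WD tumour libraries. The 3 WD tumour libraries all lay above both RD tumour libraries for 2323 genes (12.2%) and all below for 1750 (9.17%). These shares, like those at an unadjusted p, are the background for the counts of each gene group in the full fit. At an unadjusted p under 0.05 the shares higher and lower became 1.3% and 1.81% without WD tumour 1. They were 2.72% and 6.14% without WD tumour 2 and 1.69% and 1.83% without WD tumour 3. Without RD tumour 2, which leaves RD tumour 1 alone in its group, both were far larger. Against RD tumour 2 alone, the 3 WD tumour libraries all lay above it for 4796 genes and all below it for 4700. What follows for WD tumour against RD tumour describes genes of low unadjusted p and carries no call. The median log2 difference over all genes tested was -0.01.

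Among the genes of lowest p that were lower in every WD tumour library, 3 belonged to the Id family, small proteins that bind and block basic helix-loop-helix transcription factors and that are classical targets of bone morphogenetic protein signalling. Id3 (chr4:136143497-136145755, GRCm38) stood at 41.6, 44.0 and 47.3 CPM in WD tumour 1, 2 and 3 and at 173 and 192 CPM in RD tumour 1 and 2, a log2 difference of -2.04 (SE 0.25) with the lowest unadjusted p of the comparison (3.9e-05). The groups stood far apart and each was tight. Id2 stood at 71.4, 60.7 and 54.4 CPM against 483 and 187 CPM, and Id1 at 11.5, 14.2 and 15.6 CPM against 27.5 and 45.8 CPM. The fourth member, Id4, chosen after its values were seen, stood at 2.88, 2.83 and 1.98 CPM against 11.9 and 4.71 CPM. All 4 lay lower in each WD tumour library than in either RD tumour library. The rule that named Id1, Id2 and Id3 requires this, and Id4 was picked on its values, so it is no separate result. In the RD no tumour livers Id3 stood at 75.5, 73.9 and 52.4 CPM, between the other groups. The other members lay closer to WD tumour there. Id2 stood at 77.9, 96.1 and 66.1 CPM, Id1 at 12.5, 17.8 and 15.3 CPM and Id4 at 2.14, 2.00 and 2.13 CPM. Hepcidin (Hamp), the iron hormone that the same signal induces in hepatocytes, stood at 819.8, 1.52 and 908 CPM against 1909 and 4027 CPM. WD tumour 2 was almost without it, and the log2 difference of -2.36 had an SE of 1.61.

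The other genes of lowest p on the lower side had varied roles. Chka, choline kinase alpha, which starts the making of phosphatidylcholine, stood at 131, 168 and 124 CPM against 630.3 and 439 CPM (log2 difference -1.92, SE 0.32). Irs2, the insulin receptor substrate that falls when insulin is high, stood at 33.8, 56.0 and 36.3 CPM against 212 and 115 CPM. Nnmt, which methylates nicotinamide, stood at 89.2, 76.3 and 106 CPM against 257 and 412 CPM, and the RD no tumour libraries reached 303, 445 and 236 CPM. The stress gene Gadd45g stood at 69.6, 60.6 and 56.4 CPM against 162 and 165 CPM, with 135, 189.6 and 204 CPM in RD no tumour. For Nnmt and Gadd45g all 5 reversed-diet livers, with and without tumour, lay above all 3 WD tumour livers. Chka and Irs2 did not share this: RD no tumour stood at 79.2, 129 and 107 CPM for Chka and at 65.8, 45.9 and 29.4 CPM for Irs2. Prom1, the surface protein CD133 of progenitor and some tumour cells, stood at 2.76, 2.16 and 2.54 CPM against 22.2 and 11.3 CPM. The remaining genes named by the rule were Cdc42ep5 (log2 difference -2.13), Tubb2a (-1.91), the non-coding Snhg20 (-1.19) and the smooth-muscle gene Tagln (-2.33).

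Genes higher in every WD tumour library included several enzymes and transporters of hepatocytes. Adam11 stood at 47.3, 32.3 and 63.5 CPM in WD tumour 1, 2 and 3 and at 7.63 and 6.65 CPM in RD tumour 1 and 2 (log2 difference 2.74, SE 0.51). Acot11, a thioesterase that frees fatty acids from coenzyme A, stood at 25.4, 18.6 and 25.8 CPM against 6.27 and 7.37 CPM. Serpina12, which encodes vaspin, stood at 29.3, 27.5 and 29.7 CPM against 14.1 and 9.76 CPM, and the kinase Pdk1, which holds back pyruvate dehydrogenase, at 71.3, 72.4 and 71.5 CPM against 42.0 and 36.9 CPM. For both the 3 WD tumour values were nearly equal. Folh1, a glutamate carboxypeptidase, stood at 8.29, 8.29 and 7.92 CPM against 1.83 and 0.589 CPM. Crp, C-reactive protein, stood at 512, 332 and 354 CPM against 96.7 and 167 CPM, and the RD no tumour libraries, at 594, 389 and 503 CPM, lay at or above the WD tumour group's lowest value. Adh1, the main alcohol dehydrogenase of liver, stood at 538, 203 and 475 CPM against 83.8 and 133 CPM, with WD tumour 2 the lowest of its group. The others named by the rule were Aoc1 (log2 difference 2.99), Slc38a11 (3.19), Ankrd6 (2.01), Slc16a11 (1.83) and Adamts6 (1.61). The plot of these 24 genes shows how far the 5 libraries lay apart.

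**Figure D2:**
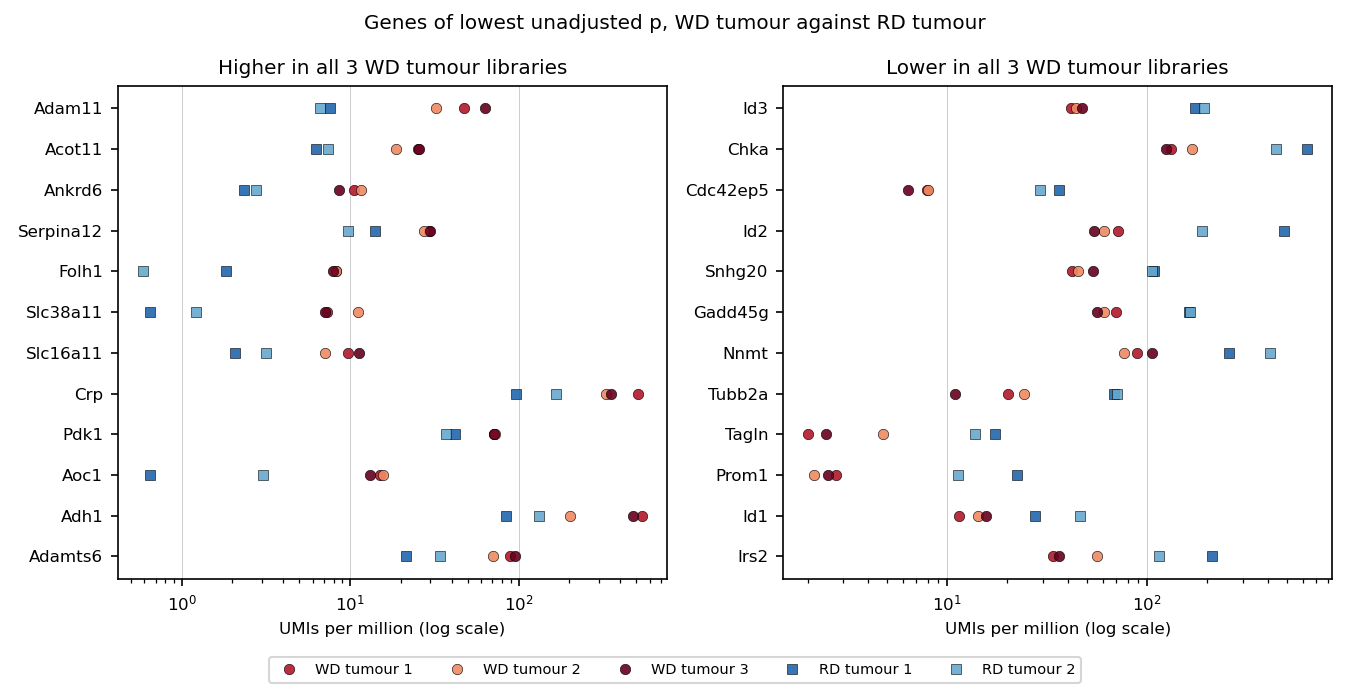
Each point is the level of a gene in 1 library, in CPM on a log axis, for the 12 genes per direction of lowest unadjusted p between WD tumour (circles, 3 mice) and RD tumour (squares, 2 mice). In every row circles and squares do not overlap, as the rule for choosing these genes requires. Id3 stands at 41.6 to 47.3 in the circles and at 173 and 192 in the squares.

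Genes of sterol synthesis and uptake were mostly higher in WD tumour, short of the adjusted threshold. Of the 21 genes listed, all tested, 6 were higher at an unadjusted p under 0.05 and none lower, and 10 lay above both RD tumour libraries in all WD tumour libraries. The median log2 difference was 0.81 against both libraries together, 0.70 against RD tumour 2 and 0.90 against RD tumour 1, where that of all genes was -0.01, 0.07 and 0.11. Fdft1, squalene synthase, the first enzyme committed to sterols, stood at 30.8, 31.8 and 64.2 CPM against 11.4 and 16.2 CPM (log2 difference 1.61, SE 0.46). Msmo1, which takes methyl groups off the sterol ring, stood at 50.4, 48.9 and 119 CPM against 29.7 and 34.3 CPM. Sc5d, a late enzyme of the same path, stood at 110.5, 84.2 and 131 CPM against 53.8 and 76.0 CPM. Stard4, a carrier of sterols within the cell, stood at 34.5, 32.9 and 60.8 CPM against 24.3 and 26.2 CPM. WD tumour 3 was the highest of the 5 libraries for each of the genes just named. The RD no tumour libraries, on the same chow, were not low: their summed level was 1143, 1475 and 1323 CPM, against 1038, 809.9 and 1630.0 CPM in WD tumour 1, 2 and 3 and 629.9 and 724 CPM in RD tumour 1 and 2. The count of 6 became 9 without WD tumour 2, 1 without WD tumour 3 and 1 without RD tumour 1.

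Genes of fatty acid synthesis also leaned to the higher side. Of 16 listed, 4 were higher in WD tumour at an unadjusted p under 0.05 and none lower, with a median log2 difference of 1.00. Elovl6, which lengthens palmitate, stood at 134, 61.0 and 68.1 CPM against 19.8 and 39.5 CPM (log2 difference 1.56, SE 0.45). Srebf1, which encodes SREBP-1c itself, stood at 66.8, 24.8 and 55.9 CPM against 22.7 and 11.2 CPM. Acaca, acetyl-CoA carboxylase, stood at 394, 310.4 and 352 CPM against 165 and 181 CPM, and Fasn, fatty acid synthase, at 40.7, 13.03 and 34.5 CPM against 11.6 and 14.3 CPM. For Fasn, WD tumour 2 lay between the 2 RD tumour values. The same library stood apart for Scd1, the desaturase that makes oleate, at 1084, 119 and 528 CPM against 194 and 204 CPM, and for Thrsp at 353, 5.41 and 161 CPM against 8.11 and 16.1 CPM. Without WD tumour 2 the count was 7 of 16, without WD tumour 1 it was 1, without WD tumour 3 it was 2, without RD tumour 1 it was 1 and without RD tumour 2 it was 8. WD tumour 2 was also the library with an erythroid sum of 29042 CPM, against 1252 to 6430.5 CPM in the other 4, and the part of this in its low lipid genes was not tested. Among 17 lipid droplet genes tested, the droplet protein gene Hilpda stood at 3.51, 9.69 and 5.74 CPM against 29.4 and 17.1 CPM and Dgat1, which completes triglycerides, at 21.9, 18.5 and 23.2 CPM against 45.8 and 32.2 CPM, both lower in WD tumour. Cd36, the fatty acid receptor, was higher at 185, 120.2 and 121 CPM against 82.1 and 67.4 CPM. Genes of fatty acid oxidation showed none of 18 at an unadjusted p under 0.05, with a median of 0.05. This median pools opposite sides: it was -0.50 against RD tumour 2 and 2.27 against RD tumour 1. All WD tumour libraries lay below RD tumour 2 for 9 of the 18, and for 4700 of all 19087 genes. Leaving out RD tumour 1 or RD tumour 2 gave medians of -0.49 and 2.29.

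Hepatocyte zonation genes were uneven. Of 15 pericentral genes 3 were higher and 1 lower at an unadjusted p under 0.05, with a median log2 difference of 0.99. That median was 0.42 against RD tumour 2 and 2.51 against RD tumour 1. Leaving out WD tumour 1 took the count of higher genes to 1. Lect2 stood at 82.0, 39.6 and 54.2 CPM against 13.8 and 24.2 CPM, Rhbg, an ammonium transporter, at 5.36, 6.51 and 4.44 CPM against 1.98 and 3.12 CPM, and Rgn at 239.6, 64.8 and 179.7 CPM against 13.6 and 63.6 CPM. Oat, the ornithine aminotransferase that sits beside glutamine synthetase in the last layer around the central vein, was lower at 123, 51.6 and 74.0 CPM against 202 and 165 CPM. Glutamine synthetase itself, Glul, stood at 358, 233 and 238 CPM against 71.6 and 206 CPM. None of 15 periportal genes reached an unadjusted p under 0.05, and their median was -0.14. In the list of genes under growth hormone, Cyp2b13, which belongs to a family of near-identical cytochrome genes whose reads may be shared, stood at 3.51, 1.06 and 3.84 CPM against 0.118 and 0.346 CPM, and Igfals, the carrier of circulating IGF-1, at 33.9, 36.4 and 37.2 CPM against 13.6 and 19.5 CPM. None of the 20 genes of bile acid synthesis and transport reached an unadjusted p under 0.05. Cyp7a1, the rate-limiting enzyme of bile acid synthesis, stood at 587, 57.5 and 478 CPM against 6.69 and 106 CPM, with WD tumour 2 below RD tumour 2.

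Clock genes stood on both sides of the comparison. Of 19 listed, 3 were higher and 3 lower in WD tumour at an unadjusted p under 0.05. Arntl, the BMAL1 activator, stood at 26.0, 41.1 and 23.4 CPM in WD tumour and at 100.01 and 129 CPM in RD tumour (log2 difference -1.92, SE 0.51). Its partner Clock stood at 112, 114 and 96.4 CPM against 187 and 188 CPM, and Nfil3, a repressor at D-boxes, at 17.3, 26.6 and 12.5 CPM against 69.3 and 46.8 CPM. These 3 were lower in every WD tumour library. The repressor gene Per3 stood at 78.5, 16.5 and 100.1 CPM against 8.20 and 11.1 CPM, the D-box activator Tef at 149.8, 59.3 and 172 CPM against 50.6 and 48.9 CPM, and its relative Dbp at 39.4, 7.40 and 81.2 CPM against 9.14 and 3.01 CPM. These 3 were higher in WD tumour 1 and 3, whereas WD tumour 2 lay close to the RD tumour libraries and, for Dbp, between them. Cry1 stood at 36.2, 10.3 and 14.9 CPM against 62.3 and 99.2 CPM. Leaving out 1 library at a time gave 1 to 4 clock genes higher and 2 to 5 lower. The labels give no time of day for the sampling.

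The clock activators bind the E-box CACGTG, and promoters of clock genes that lay on opposite sides of this comparison are shown because both hold it. Within 250 bases before the start, RefSeq's promoters (GRCm38.p6, both strands searched; the motif reads the same on each) held it in 5 of the 16 clock genes that matched (Bhlhe41, Ciart, Cry1, Per1 and Tef), and in 6.86% of all 27025 genes. Capitals mark the motif, Tef is on the plus strand (chr15:81802423-81802672, one of its 2 listed starts) and Cry1 on the minus strand (chr10:85185055-85185304).
Tef: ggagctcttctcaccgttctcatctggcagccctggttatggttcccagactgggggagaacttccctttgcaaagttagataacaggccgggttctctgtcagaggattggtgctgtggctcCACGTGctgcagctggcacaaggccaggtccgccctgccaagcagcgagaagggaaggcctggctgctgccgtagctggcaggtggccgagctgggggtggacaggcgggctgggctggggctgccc
Cry1: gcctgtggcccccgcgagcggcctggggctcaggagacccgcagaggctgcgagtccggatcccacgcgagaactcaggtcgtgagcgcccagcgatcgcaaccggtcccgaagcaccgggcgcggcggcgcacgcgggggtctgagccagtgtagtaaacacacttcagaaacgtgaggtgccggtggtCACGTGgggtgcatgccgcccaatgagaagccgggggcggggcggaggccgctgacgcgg
Tef was higher and Cry1 lower in all 3 WD tumour libraries, and since the pair was chosen for this, it says nothing of the motif. The plot of lipid and clock genes shows members of these lists by library.

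**Figure D3:**
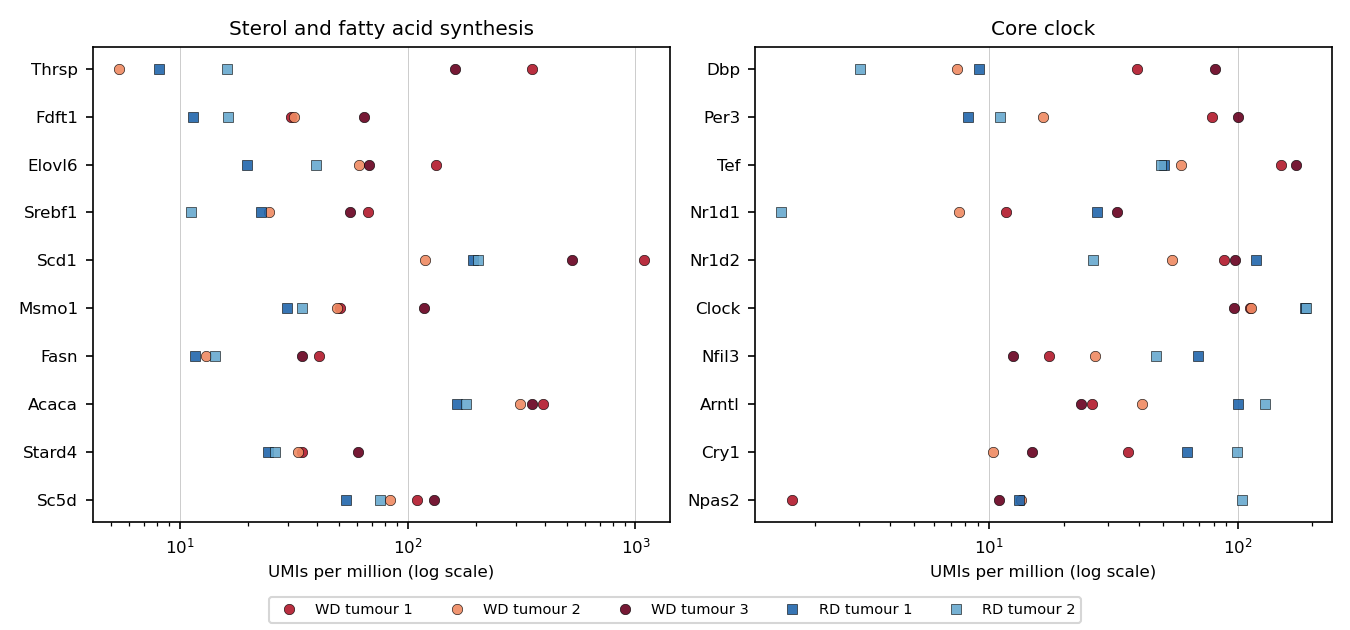
Each point is the level of a gene in 1 library, in CPM on a log axis, for genes of sterol and fatty acid synthesis (left) and of the clock (right) that the text names, ordered by log2 difference, with WD tumour as circles (3 mice) and RD tumour as squares (2 mice). Circles lie to the right of both squares for Fdft1, Msmo1, Sc5d and Stard4, while for Arntl, Clock, Cry1 and Nfil3 they lie to the left of both squares.

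Genes of smooth muscle stood among the lower ones, again without a call. Of 12 markers of portal fibroblasts and vascular muscle, 4 were lower and none higher at an unadjusted p under 0.05. By overlap the list was split: 4 lay lower in all WD tumour libraries and 4, the fibroblast genes Dpt, Thy1, Mfap4 and Entpd2, lay higher, with a median of -0.36. Acta2 (chr19:34241090-34255590), smooth-muscle actin, was scarce in WD tumour with 10, 6 and 12 UMIs and held 148 and 529 UMIs in RD tumour 1 and 2, which is 0.576, 0.254 and 0.485 CPM against 4.38 and 18.3 CPM (log2 difference -4.69, SE 0.72). Tagln, transgelin, stood at 2.02, 4.78 and 2.46 CPM against 17.4 and 13.7 CPM and Cnn1, calponin, at 0.288, 0.592 and 0.0808 CPM against 2.22 and 1.45 CPM. Both RD tumour libraries lay above all WD tumour libraries for these 3. Myh11, smooth-muscle myosin, was high in RD tumour 2 alone, at 1.90, 0.888 and 1.78 CPM against 1.36 and 20.5 CPM, and its log2 difference turned from -2.84 to 0.18 without that library. Outside the list, and chosen after their values were seen, Tpm2 stood at 0.806, 0.465 and 0.767 CPM against 3.67 and 11.7 CPM, Myl9 at 0.346, 0.888 and 0.404 CPM against 3.14 and 6.30 CPM and the pericyte gene Cspg4 at 0.518, 0.338 and 0.485 CPM against 3.88 and 1.73 CPM. Lmod1, chosen in the same way, lay the other way in RD tumour 1, at 0.634, 0.550 and 0.727 CPM against 0.355 and 6.89 CPM. Of 8 mesothelial genes, which mark the liver's surface layer, 4 were lower at an unadjusted p under 0.05, among them Msln at 0.288, 0.423 and 0.202 CPM against 3.08 and 3.39 CPM and Upk1b at 0.230, 0.296 and 0.121 CPM against 0.888 and 1.42 CPM. The 4 include Krt19, which is also on the list of bile duct markers below. Leaving out WD tumour 1 left 2 of them, and leaving out WD tumour 3 or RD tumour 2 left 1. The summed level of the 8 did not follow it, at 24.7, 18.5 and 26.8 CPM in WD tumour 1, 2 and 3 and 14.8 and 37.4 CPM in RD tumour 1 and 2. In RD tumour 2 the higher level of muscle and mesothelial genes came with the pancreatic RNA, and the part of tissue other than liver in them was not tested. In RD tumour 1 the pancreatic genes summed to 3.67 CPM, of which Cela1 held 3.2 CPM, and the part of other tissue was not tested there either.

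Smooth-muscle genes are classical targets of serum response factor, which binds the CArG box. The promoter of Myl9 held 1 in the 250 bases before its start, beginning 161 bases upstream, and it is printed with that box in capitals (RefSeq, GRCm38.p6, chr2:156775214-156775463, plus strand, both strands searched for the strict CArG box).
Myl9: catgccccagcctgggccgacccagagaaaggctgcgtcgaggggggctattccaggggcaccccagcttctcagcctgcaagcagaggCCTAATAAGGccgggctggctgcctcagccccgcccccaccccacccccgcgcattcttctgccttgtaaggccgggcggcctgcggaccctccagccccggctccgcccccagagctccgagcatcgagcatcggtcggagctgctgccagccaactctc
None of the 7 members of the marker list that matched an entry held 1 in this window. The share of all promoter windows that held 1 was 1.47%.

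None of 14 stellate markers reached an unadjusted p under 0.05, and their median log2 difference was -0.03. That value pools opposite sides: the median was -0.56 against RD tumour 2 and 1.19 against RD tumour 1. All WD tumour libraries lay below RD tumour 2 for 10 of the 14, and for 4700 of all 19087 genes. Of 22 collagen genes, 3 were higher and 1 lower at an unadjusted p under 0.05. The 3 became 0 without WD tumour 1, 2 without WD tumour 2 and 1 without WD tumour 3. The median of the list was 0.35 with all libraries, 0.555 without RD tumour 1 and 0.35 without RD tumour 2. Col27a1 stood at 119.5, 25.3 and 59.7 CPM against 2.90 and 17.0 CPM, Col15a1 at 4.49, 4.61 and 5.37 CPM against 1.12 and 0.831 CPM and Col6a3 at 14.5, 10.7 and 14.5 CPM against 4.73 and 8.66 CPM, higher in each WD tumour library. Among 36 matrix genes 12 were above both RD tumour libraries in all WD tumour libraries, and 4 of the 36 had an unadjusted p under 0.05, all higher. Mmp12, the elastase of macrophages, stood at 17.6, 4.14 and 32.7 CPM against 1.72 and 4.02 CPM, its narrowest margin being between WD tumour 2 and RD tumour 2. Mmp13, a collagenase, stood at 0.749, 0.211 and 0.606 CPM against 0.0296 and 0 CPM, a handful of molecules. Lama2 stood at 45.0, 36.1 and 53.7 CPM against 20.7 and 20.4 CPM and Ltbp2 at 4.09, 4.14 and 4.89 CPM against 1.42 and 2.15 CPM. Leaving out WD tumour 3 took the matrix count to 0, leaving out WD tumour 1 took it to 2 and leaving out WD tumour 2 took it to 5. The median of the list was 0.15 with all libraries, 0.36 without RD tumour 1 and 0.04 without RD tumour 2.

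Markers of bile duct cells split. Pkhd1, the polycystic disease gene, stood at 184, 76.6 and 140.3 CPM against 10.3 and 30.8 CPM and Bicc1 at 136, 131 and 138 CPM against 40.6 and 80.7 CPM, both higher in WD tumour. The keratin Krt19 stood at 0.806, 0.254 and 1.25 CPM against 2.16 and 4.47 CPM and Sox9, the ductal transcription factor, at 7.20, 3.89 and 9.69 CPM against 13.9 and 13.2 CPM, both lower. Of 21 fetal and tumour genes tested, 2 were higher and 3 lower at an unadjusted p under 0.05. H19, an imprinted fetal RNA, stood at 0.979, 2.07 and 1.41 CPM against 0.0888 and 0.138 CPM, and Robo1 at 214, 354 and 244 CPM against 41.2 and 140.4 CPM, both higher in each WD tumour library. Igf2bp3 stood at 19.8, 28.3 and 21.9 CPM against 67.3 and 27.5 CPM, with RD tumour 2 inside the WD tumour range.

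Among immune lists, 8 of 20 T and NK cell markers and 4 of 10 MHC class II genes lay above both RD tumour libraries in all WD tumour libraries. Of all genes 12.2% did. Only 2 of the T and NK cell markers, and none of the MHC class II genes, had an unadjusted p under 0.05. Themis stood at 60.9, 43.1 and 16.6 CPM against 5.06 and 10.7 CPM and Cd8a at 2.48, 2.83 and 2.99 CPM against 0.681 and 1.38 CPM. Cd3g stood at 3.74, 3.64 and 2.46 CPM against 1.45 and 1.97 CPM and the chemokine Ccl5 at 28.3, 25.5 and 14.6 CPM against 11.01 and 8.14 CPM, neither at that p. The median of the T and NK cell list was 0.59 with all libraries, 0.427 without RD tumour 1 and 1.05 without RD tumour 2. The summed level of the list, carried by its abundant members, was 295, 607 and 239 CPM in WD tumour 1, 2 and 3 and 738 and 320.1 CPM in RD tumour 1 and 2, highest in RD tumour 1. Of 23 interferon-stimulated genes tested only Usp18, at 23.5, 18.5 and 28.4 CPM against 2.72 and 13.3 CPM, reached it. Of 18 genes of lipid-associated macrophages 2 were higher (Mmp12 and Cd36, given above) and 2 lower. The median of that list was 0.98 against RD tumour 2 and -0.68 against RD tumour 1. The lysosomal protease Ctsl was lower in WD tumour at 343, 313 and 367 CPM against 1002 and 594 CPM. None of 24 acute phase genes except Crp reached an unadjusted p under 0.05.

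Most stress genes at a low p were lower in WD tumour. Of 23 genes of oxidative and xenobiotic stress tested, 4 were lower and none higher at an unadjusted p under 0.05. The metallothionein Mt1 stood at 867, 1068 and 744 CPM against 3575 and 1372 CPM and Mt2 at 239, 247 and 198 CPM against 737 and 328 CPM. Gstp1, a glutathione transferase often high in altered hepatocytes, stood at 13.9, 11.9 and 20.3 CPM against 56.4 and 44.1 CPM. Atf4, the factor of the integrated stress response, stood at 46.3, 52.4 and 61.5 CPM against 141 and 79.2 CPM, and its target Asns, asparagine synthetase, at 0.230, 3.05 and 0.485 CPM against 15.7 and 7.82 CPM. The related stress gene Chac1 lay the other way at 2.02, 0.888 and 0.606 CPM against 0.355 and 0.415 CPM. Leaving out WD tumour 3 took the count of 4 to 1. The median of the oxidative and xenobiotic list was -0.31 with all libraries, -0.121 without RD tumour 1 and -0.266 without RD tumour 2. Of the 22 genes of the unfolded protein and stress response, 1 was higher and 3 lower. Of 13 mitochondrially encoded genes, 6 lay above both RD tumour libraries in all WD tumour libraries, where 12.2% of all genes did. At an unadjusted p under 0.05 there was 1 of them. Leaving out WD tumour 2, whose mitochondrial share of UMIs was 1.68%, raised that count to 9, where 2.72% of all genes were higher. Leaving out WD tumour 1 or WD tumour 3, with shares of 4.21% and 4.24%, took the count to 0.

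The remaining lists were as follows. At an unadjusted p under 0.05 none of 14 sinusoidal endothelial, 14 hepatocyte, 14 monocyte, 12 dendritic cell, 10 MHC class II, 11 cytotoxic, 12 erythroid and 4 nuclear-retained genes was named by the test. Of 16 vascular endothelial genes 2 were lower, of 18 Kupffer cell genes 1 (Id3), of 17 immune checkpoint genes 1, of 31 chemokine and receptor genes 1 and of 15 B and plasma cell genes 1. Of 4 adipocyte genes tested 1 was higher. Leaving out WD tumour 2 took the Kupffer cell count to 7 of 18 and the chemokine count to 5 of 29 tested. Of all genes 6.14% were then lower. The B and plasma cell median was -0.33 with all libraries and -0.90 without RD tumour 1.

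Immediate early genes, switched on within minutes of a stimulus, had 6 of 16 members lower at an unadjusted p under 0.05, against 4.73% of all genes, and neutrophil genes 3 of 14. Without RD tumour 1 the medians turned from -1.17 to 0.21 and from -3.17 to 0.29. Without RD tumour 2 the medians were -1.91 and -3.96. Without WD tumour 1 both counts were 1 (1.81% of all genes lower) and without WD tumour 3 they were 3 and 0 (1.83%). The neutrophil count was 1 without WD tumour 2 (6.14%), 9 without RD no tumour 1 (3.65%) and 5 without RD no tumour 3 (4.24%).

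Set against RD tumour 2 alone, in a fit with 4 groups that takes this lone library to vary like the others, again no gene passed the threshold (0% of those tested). At an unadjusted p under 0.05 there were 757 genes, 245 higher (1.28%) and 512 lower (2.68%) in WD tumour, and DESeq2 called 69. The lowest adjusted p was 0.144. Pancreatic acinar RNA led the lower side. Cela1 stood at 9.16, 6.13 and 6.46 CPM in WD tumour and at 118 CPM in RD tumour 2, Cela2a at 0.173, 0.254 and 0.0808 CPM against 22.0 CPM, and Pdia2, a pancreatic disulfide isomerase, at 0.0576, 0.0846 and 0.0404 CPM against 6.72 CPM. Of the 13 acinar genes listed 3 were tested, all 3 lower at an unadjusted p under 0.05, and the rest were kept out by the filter: chymotrypsinogen Ctrb1 had 1530 UMIs in RD tumour 2 and at most 6 in any other library, and colipase Clps had 1764 and at most 3. Digestive enzymes of the exocrine pancreas were thus plain in this library. Apart from Cela1, at 3.2 to 9.5 CPM in the other 7 libraries, they were close to 0 there.

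Other genes lower in WD tumour than in RD tumour 2 are not on the acinar list, and the tissue they came from was not tested. Acta2, with a log2 difference of -5.38 (SE 0.53), Tpm2 with -4.10 and Id3 with -2.11 (SE 0.24) were among those of lowest p. Myh11 stood at a difference of -3.75 and Lmod1, another smooth-muscle gene, at -3.43, while RD tumour 1 held 0.355 CPM of it, under every WD tumour library. Slc25a22, the mitochondrial glutamate carrier, stood at 42.2, 32.3 and 44.2 CPM against 185 CPM, with 62.7, 108 and 64.6 CPM in RD no tumour. Abtb2 stood at 96.1, 82.6 and 88.5 CPM against 233 CPM, Tmem82 at 23.2, 20.3 and 23.0 CPM against 58.8 CPM and Lrfn3 at 3.86, 5.37 and 3.80 CPM against 28.3 CPM. For these 3 the level in RD tumour 1 was 76.4, 18.9 and 1.54 CPM, under every WD tumour library. Of 15 B cell and plasma cell markers 6 were lower in WD tumour at an unadjusted p under 0.05, among them Ebf1 at 32.8, 28.8 and 30.5 CPM against 75.8 CPM and Cd79a at 3.34, 2.37 and 2.95 CPM against 8.83 CPM. The long nuclear RNA Neat1 stood at 786, 1172 and 768 CPM against 2353 CPM.

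On the higher side the rule named Serpina12, Folh1 and Pdk1 again. Adrb3, the beta-3 adrenergic receptor, stood at 26.3, 22.4 and 30.7 CPM in WD tumour and at 8.41 CPM in RD tumour 2, Car1, a carbonic anhydrase, at 5.53, 12.3 and 6.06 CPM against 0.658 CPM, Slc22a26 at 10.3, 13.3 and 11.8 CPM against 3.25 CPM and Zfp992 at 24.8, 26.4 and 17.1 CPM against 7.62 CPM. Slc22a26 stood at 13.9 CPM in RD tumour 1, above all WD tumour libraries. Of the 19 clock genes 4 were higher and 3 lower at an unadjusted p under 0.05. The nuclear receptor Nr1d1, REV-ERB alpha, which represses Arntl, stood at 11.7, 7.53 and 32.6 CPM against 1.45 CPM, its relative Nr1d2 at 88.1, 54.6 and 97.7 CPM against 26.1 CPM, and Npas2, an activator like Clock, at 1.61, 13.4 and 10.9 CPM against 104 CPM. Srebf1 kept a difference of 2.13 (SE 0.59). The sterol list had 1 of 21 members at that p and the fatty acid list 1 higher and 1 lower of 16.

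Set against RD tumour 1 alone, 4323 genes passed the threshold (22.6% of those tested), 2351 higher (12.3%) and 1972 lower (10.3%) in WD tumour. This count describes 1 library against 3. It became 0 without WD tumour 3 and 920 without WD tumour 1, with 6031 and 6121 genes at an unadjusted p under 0.05. DESeq2 called 6775. Adjusted p-values in the next paragraphs are from edgeR's quasi-likelihood test in the full fit, and differences in RNA type went with the calls: over genes of at least 5 CPM the median log2 difference was 1.61 for 266 long intergenic RNAs and -0.06 for 11319 protein-coding genes, and 0.90 for genes that span 200 kb or more and -0.33 for those under 5 kb. The part of RNA quality in the gene calls below was not tested.

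Some groups of hepatocyte genes were far lower in RD tumour 1 than in WD tumour, while few of the general hepatocyte markers passed. Inhbe, the liver activin subunit, stood at 33.8, 25.3 and 33.2 CPM in WD tumour and at 0.266 CPM in RD tumour 1 (log2 difference 6.82, SE 0.39, adjusted p = 0.0103), against 44.2 CPM in RD tumour 2. Inhbc, another activin subunit gene of liver, stood at 27.2, 26.1 and 24.7 CPM against 1.98 CPM. The bile acid receptor gene Nr1h4 (FXR) stood at 883, 449.6 and 639 CPM against 23.1 CPM, and the uptake transporter Slco1b2 at 2168, 872 and 1943 CPM against 45.5 CPM. RD tumour 2 held 624 and 1141 CPM of them, inside the WD tumour range. Of 20 bile acid genes 7 were higher in WD tumour and 1 lower at the adjusted threshold, of 15 pericentral genes 8 and none, and of 16 fatty acid synthesis genes 6 and none, where 12.3% of all genes were higher and 10.3% lower. Of 18 fatty acid oxidation genes 3 were higher, and of 14 general hepatocyte markers 1 (7.14%). Cyp2e1, which oxidizes ethanol around the central vein, stood at 2728, 728 and 1805 CPM against 93.9 CPM, and Lgr5, the receptor for Wnt-enhancing R-spondins in the same zone, at 40.6, 54.6 and 53.3 CPM against 5.53 CPM. Mlxipl, which encodes ChREBP, stood at 574, 253 and 599 CPM against 49.5 CPM. The stellate-cell gene Reln stood at 158, 136 and 166 CPM against 23.7 CPM. Hepatocyte RNA was still plain: the marker sum was 25987 CPM in RD tumour 1, and the periportal list had none of 15 at the adjusted threshold.

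By largest fold among genes at an adjusted p under 0.05, a choice added after the data were seen, the genes furthest below WD tumour in RD tumour 1 included several hepatocyte products. Cyp4a12a, a fatty acid hydroxylase of male liver, had no UMI in RD tumour 1 and stood at 132, 16.2 and 34.0 CPM in WD tumour, at least 684-fold higher against a floor of 3 UMIs in that library. WD tumour 1 carried that mean, and without it the limit was 283-fold. Fgf21, the fasting hormone, also had none there, against 19.5, 4.95 and 15.3 CPM, at least 149-fold higher. RD tumour 2 held 36.8 and 74.4 CPM of them. The major urinary protein gene Mup3 stood at 1054, 320.4 and 594 CPM against 1.30 CPM and its relative Mup20 at 3695, 889 and 1180.0 CPM against 31.2 CPM. Mup genes are near-identical copies, and how their reads were assigned is uncertain. Mup10 had 1 UMI in RD tumour 1, a ratio of 288 (95% Poisson interval 51.8 to 11392, counting error only), and of 184 without WD tumour 1. Gpx5 also had 1 UMI, a ratio of 239.8 (43.0 to 9471), and Tmie had 2, a ratio of 161 (44.7 to 1333). Dsg1c stood at 63.1, 33.5 and 62.5 CPM against 0.178 CPM and Sdr9c7 at 36.5, 25.3 and 50.3 CPM against 0.237 CPM.

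Genes higher in RD tumour 1 included developmental transcription factors that adult liver scarcely uses. Tbx15 stood at 0.173, 1.40 and 0.121 CPM in WD tumour and at 51.2 CPM in RD tumour 1 (log2 difference -6.47, SE 1.20), and Pou3f3 at 0.0576, 1.10 and 0 CPM against 33.3 CPM. Pax3, chosen after its values were seen, stood at 0, 6.18 and 0.0404 CPM against 47.4 CPM and did not pass (adjusted p = 0.200). WD tumour 2 was the highest WD tumour library for all 3. Bex3 stood at 1.21, 5.24 and 2.02 CPM against 163 CPM, Fignl1, a DNA repair factor, at 0.230, 2.66 and 0.202 CPM against 56.5 CPM, and Crtam, a receptor of activated lymphocytes, at 0.461, 0.761 and 1.05 CPM against 22.8 CPM. Ppp1r3g, a glycogen-targeting phosphatase subunit, stood at 3.57, 0.0846 and 0.767 CPM against 45.7 CPM, Pp2d1 at 2.48, 3.47 and 2.54 CPM against 76.7 CPM and Lrrc63 at 0.634, 2.96 and 0.565 CPM against 55.2 CPM. RD tumour 2 held 0.0346 to 2.22 CPM of these 9 genes, far under RD tumour 1. Actb, cytoplasmic actin, stood at 222, 384 and 174 CPM against 3553 CPM.

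**Figure D4:**
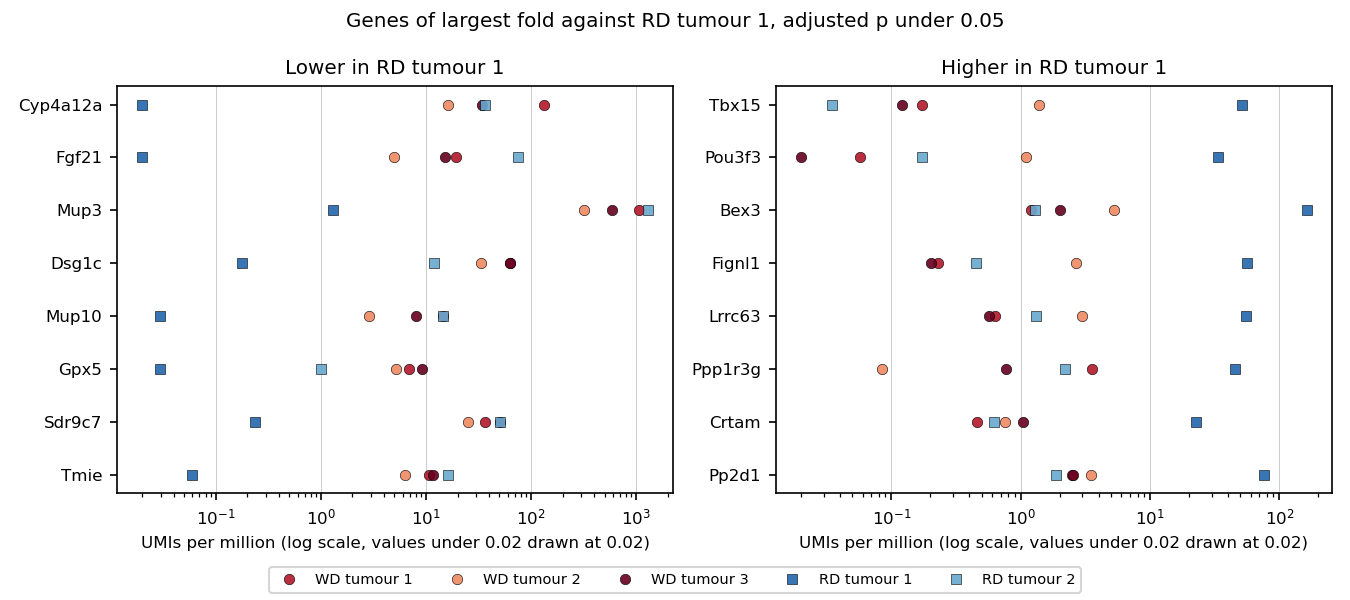
Each point is the level of a gene in 1 library, in CPM on a log axis, for the 8 genes per direction of largest fold between WD tumour (circles, 3 mice) and RD tumour 1 (dark square) at an adjusted p under 0.05, with RD tumour 2 as the light square. Values under 0.02, which includes 0, are drawn at 0.02. The 2 squares lie far apart in every row, as for Tbx15 at 51.2 and 0.0346.

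Among the immediate early genes 6 of 16 passed against RD tumour 1, all lower in WD tumour. Dusp1 stood at 49.5, 47.0 and 33.2 CPM against 322 CPM, Myc at 3.34, 4.57 and 3.31 CPM against 22.1 CPM and Jund at 36.2, 38.8 and 41.6 CPM against 122 CPM. RD tumour 2 held 71.8, 4.36 and 45.9 CPM of these. Of 30 cell cycle genes 5 passed, all lower in WD tumour, a share of 16.7% where 22.6% of all genes passed and 10.3% were lower. The replication clamp Pcna stood at 15.6, 29.2 and 14.7 CPM against 89.4 CPM, the helicase subunit Mcm3 at 3.92, 8.42 and 3.23 CPM against 28.6 CPM, and the arrest gene Cdkn1a (p21) at 11.4, 23.6 and 16.6 CPM against 113 CPM. Mki67, the proliferation marker, stood at 2.48, 56.9 and 1.94 CPM against 114 CPM and did not pass (adjusted p = 0.317). WD tumour 2 again lay between the other WD tumour libraries and RD tumour 1. Against both RD tumour libraries together, the cell cycle list had 1 member lower at an unadjusted p under 0.05, and 13 without WD tumour 2. Of all genes 4.73% and 6.14% were lower in these fits. The median of the list was -1.50 with all libraries, 1.45 without RD tumour 1 and -2.40 without RD tumour 2.

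Blood and immune RNA differed just as unevenly. Of 14 neutrophil markers none passed, while S100a8, which neutrophils hold in bulk, stood at 29.4, 44.2 and 5.86 CPM in WD tumour and at 1034 CPM in RD tumour 1 (adjusted p = 0.0768). RD no tumour 1 held 166 CPM, the next highest. Cxcl13, the chemokine that draws B cells, stood at 5.53, 806 and 14.7 CPM against 3459.9 CPM and in RD tumour 2 at 150.1 CPM. Its spread within WD tumour was wide, and it did not pass (adjusted p = 0.281). The macrophage complement gene C1qa passed, at 55.8, 178 and 49.4 CPM against 766 CPM, as did the B cell receptor gene Cd79b, at 2.30, 10.3 and 3.35 CPM against 59.1 CPM, and the checkpoint receptor Tigit, at 0.922, 0.804 and 0.767 CPM against 15.4 CPM. The 18 lipid-associated macrophage genes had a median log2 difference of -0.68, where that of all genes was 0.11. Among them the lysosomal protease Ctsd stood at 102, 149 and 95.2 CPM against 698 CPM. Id3, Atf4 and Mt1 passed here as well, with log2 differences of -1.96, -1.40 and -2.00. Against RD tumour 2 theirs were -2.11, -0.57 and -0.62. The 2 comparisons share the WD tumour libraries. The median of every list against each RD tumour library is plotted last.

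**Figure D5:**
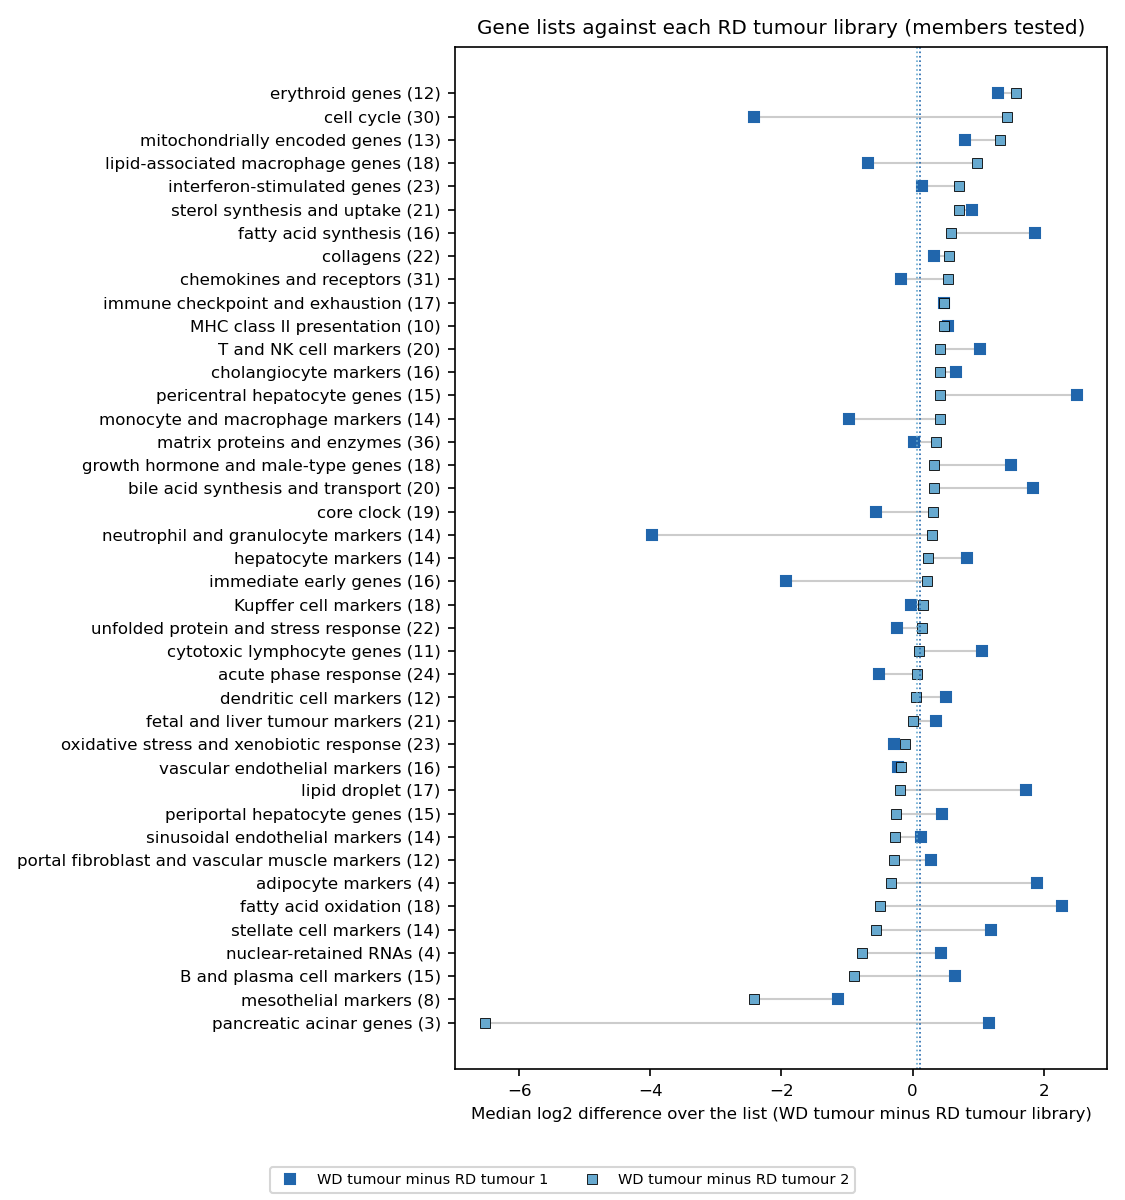
Each row is a gene list with its number of members tested, and the squares give the median log2 difference of WD tumour against RD tumour 1 (dark) and against RD tumour 2 (light), with dotted lines at the medians of all genes (0.11 and 0.07). Sterol synthesis lies at 0.90 and 0.70, while the cell cycle list lies at -2.41 and 1.45 and the neutrophil list at -3.98 and 0.29.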

How the data were processed

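The study measured nuclear RNA in 1 liver library per mouse. The authors deposited raw UMI counts per gene and barcode, made with Cell Ranger 7.0.0 on mm10, per the submitters' processing notes, and filters before deposit are not given in the sources used here. Here the deposited counts were summed per library over barcodes with at least 300 detected genes, and no doublet caller was run because no cell types were called. Doublets were not removed. Sums were tested with edgeR 4.0.16 (R 4.3.3; TMM, filterByExpr, quasi-likelihood F test, Benjamini-Hochberg over 19087 genes, threshold 0.05) across all 8 libraries as 3 groups, or as 4 groups with RD tumour 1 and RD tumour 2 apart. A lone library was assumed to vary like the others. Single values per library were compared by an exact permutation test (scipy 1.17.1). Alternatives were DESeq2 1.42.0, other scaling, filters and barcode sets, the replicate number as a block, and leaving out each library.

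The genes named were the 12 per direction of lowest p whose WD tumour and RD tumour libraries did not overlap (mean of at least 5 CPM, no predicted genes), up to 4 members per list of lowest p, and against RD tumour 2 the 8 per direction of largest fold among genes past the threshold or, as under 8 passed, of lowest p. For RD tumour 1, where more than 8 passed, the 8 per direction of largest fold were taken. This last choice, and every other gene named, were made after their values were seen. The members and the 41 lists (660 genes tested) were chosen with earlier results of these data known. No batch is given in the labels. Depth, 17948627 to 34363108 UMIs per library, sets the floor: 3 UMIs are 0.0888 CPM in RD tumour 1. Gene coordinates are those of GENCODE M21 on GRCm38, and promoters those of RefSeq on GRCm38.p6. Some genes that the rule picks are not reported here.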

Additional observations from a re-analysis of the deposited data

How the results depend on the processing

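Against both RD tumour libraries, edgeR called 0 genes under every alternative run except the loss of RD tumour 2: leaving out 1 library at a time gave 0 to 4438 calls, and DESeq2 gave 109. Against RD tumour 2, DESeq2 gave 69 calls and dropping the low-count filter gave 21, all lower in WD tumour. Leaving out any 1 library there gave 0 calls. Against RD tumour 1, where 4323 genes were called, DESeq2 gave 6775, a replicate block gave 0, leaving out WD tumour 2 and RD no tumour 1 together (chosen after seeing the data) gave 8004, and leaving out 1 library at a time gave 0 to 5456. RLE scaling gave 2155 higher and 2159 lower in place of 2351 and 1972. The replicate block gave 0 calls against both RD tumour libraries too. Same-numbered libraries of different groups deviated from their group means with correlations of -0.607 to 0.464 across genes. For WD tumour and RD tumour these were -0.381 and -0.469. Libraries of unlike number gave -0.579 to 0.699. The deviations of the 2 RD tumour libraries mirror each other, so these values cannot show whether the numbers pair the mice. Of 1952 values for 109 genes against both libraries, 1861 kept direction and side of the threshold, 90 newly passed it and 1 turned sign (Myh11, 0.18 without RD tumour 2, against -3.75 without RD tumour 1). Of 796 values for 50 genes against RD tumour 1, 156 lost the call, in 44 genes. The cause of these shifts was not tested.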
